A study of Mus musculus with 14 samples.

Results

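Mouse lung tumours carrying 1 copy of a conditional Myc allele were compared with tumours carrying 2 copies. The series holds 14 bulk RNA-seq libraries of untreated small cell lung cancer taken from mouse lungs, and 11 of them belong to the RPM model, in which Rb1 and Trp53 are floxed on both alleles and Myc (T58A) sits behind a lox-stop-lox (LSL) cassette with an IRES-Luc reporter. By the Myc genotype in the labels, 9 RPM tumours are LSL/LSL (2 copies) and 2 are LSL/+ (1 copy). The other 3 libraries come from a model with floxed Rbl2 (p130) and no Myc allele, and they enter only as an alternative fit. In all 11 RPM tumours Cre was delivered by an adenovirus with the Cgrp promoter, a promoter active in neuroendocrine cells, and the tumours were dissected by hand from the lung before RNA extraction. Age, sex and the time from infection are not given in the labels used here.

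MYC is a basic helix-loop-helix leucine zipper transcription factor that binds DNA as a dimer with MAX, preferring the E-box CACGTG, and its best known target groups are ribosome biogenesis, nucleotide synthesis, translation and the cell cycle. The threonine replaced in this allele is a phosphorylation site through which the FBXW7 ubiquitin ligase marks MYC for degradation, and the alanine substitution stabilises the protein. Cre removes the stop cassette, so an LSL/LSL cell can express the stabilised protein from both copies and an LSL/+ cell from a single one. In mouse and human small cell lung cancer, high MYC is associated with NEUROD1-dominated and less neuroendocrine states.

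The genes compared were those with at least 1 FPKM (fragments per kilobase of transcript, scaled to the mapped fragments of each library) in 3 or more of the 11 RPM libraries, which left 14862. Differences below are LSL/+ minus LSL/LSL on log2(FPKM + 1), which understates changes of low genes. Summed FPKM ran from 599119 to 939971 per library, and read depth cannot be read from these values. LSL/+ replicate 1 had both the highest sum and the fewest genes at 1 FPKM or more, 12994 against 13433 to 14129 in the LSL/LSL tumours. Both LSL/+ tumours and LSL/LSL replicates 1 and 2 have titles from PB115 to PB124, and the other 7 LSL/LSL tumours from PB189B to PB281F. In 2 cases a pair of LSL/LSL tumours shares the number in its title, replicates 4 and 5 (PB190A and PB190C) and replicates 8 and 9 (PB281E and PB281F), and the labels do not say whether tumours of a pair came from 1 mouse. Xist was 140 FPKM in LSL/+ replicate 1 and 0.22 in LSL/+ replicate 2, whose Y-linked Eif2s3y was 24.9 against 0.00 in replicate 1, so sex-linked expression differed between the LSL/+ tumours, while LSL/LSL replicates 8 and 9 alone among the LSL/LSL tumours lacked Xist. Bulk values cannot tell fewer cells of a type from less RNA per cell.

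Myc itself did not separate the genotypes. Myc (chr15:61985391-61990374, plus strand, GRCm38) was 123, 224 and 384 FPKM (lowest, median and highest) in the LSL/LSL tumours, 48.4 in LSL/+ replicate 1 and 234 in LSL/+ replicate 2. The first LSL/+ tumour lay below all 9 LSL/LSL tumours, and the second lay above their median. The mean difference was -1.12 (SE 0.47), with a two-sided exact permutation p of 0.109 over all 55 splits, where the smallest possible p is 0.0182. Without LSL/+ replicate 1 the difference was 0.01, and without LSL/+ replicate 2 it was -2.24. Among the 4 tumours titled PB115 to PB124 it was -0.76 (exact permutation p = 0.667, smallest possible 0.333). The deposited table has 1 value for Myc, in which transcripts of the conditional allele and of the resident gene are not separated.

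Of the Myc relatives, Mycl, the family member typical of classic small cell lung cancer, was 3.52, 10.7 and 27.4 FPKM in the LSL/LSL tumours and 4.61 and 1.86 in the LSL/+ tumours, both below the LSL/LSL median and replicate 2 below the whole LSL/LSL range. Mycn was low in every tumour, at 0.55 to 3.96 FPKM in LSL/LSL and 1.57 and 0.99 in LSL/+. Among the genes targeted in all 11 tumours, Rb1 was 5.19 and 8.89 FPKM in LSL/+ against an LSL/LSL median of 9.21, and Trp53 was 12.7 and 10.6 against 9.76. These are whole-gene values that do not report on the floxed exons alone.

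**Figure D1:**
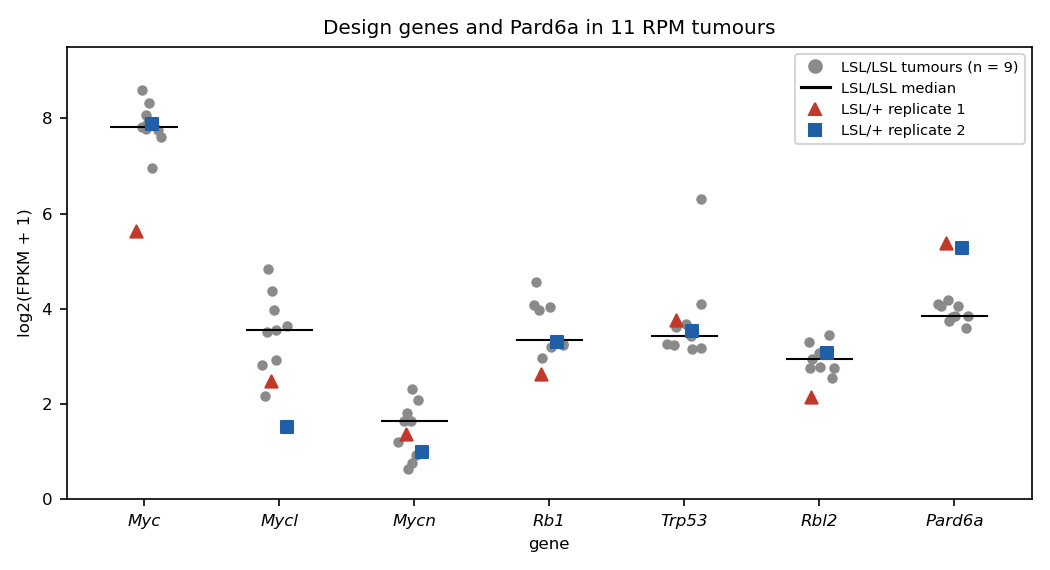
Expression of the Myc family, the targeted genes, Rbl2 and Pard6a in the 11 RPM tumours, on log2(FPKM + 1), with 1 point per tumour and a line at the LSL/LSL median. LSL/+ replicate 1 lies below all LSL/LSL tumours for Myc while LSL/+ replicate 2 lies within them, and for Pard6a both lie above.

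Across all genes, limma with Benjamini-Hochberg adjustment over the 14862 genes called 1 gene higher in LSL/+ (0.00673% of genes tested) and 0 lower at 0.05, although 2569 genes (17.3%) had an unadjusted p under 0.05, 752 of them higher and 1817 lower. Simulated data drew each gene independently in the 11 tumours at its LSL/LSL mean and spread. They held no trend on transcript length and no link between tumours that share a title number. In these simpler data 46% of genes given a shift of 1 (log2) and 74% of genes given a shift of 2 were recovered. The genes were therefore also described by where the LSL/+ tumours fell. Both lay above all 9 LSL/LSL tumours for 398 genes (2.68%) and below all 9 for 993 (6.68%), together 1391 (9.36%), and these are called non-overlapping here. Both lay on the same side of the LSL/LSL median for 9321 genes (62.7%), 3163 above (21.3%) and 6158 below (41.4%).

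That excess of lower genes depends on scale. The median difference over all genes was -0.16 as deposited, 0.00 after median-of-ratios scaling between libraries and -0.39 after rescaling to TPM. With median-of-ratios scaling 734 genes (4.94%) were non-overlapping higher and 702 (4.72%) lower, and with TPM 172 and 1123. Gene groups are therefore read against the all-gene median.

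Part of the shift tracked transcript length. Genes were divided into 5 equal classes by their longest annotated transcript, and LSL/+ replicate 1 was higher than the LSL/LSL median for the shortest class (0.34) and lower for the longest (-0.78), a span of 1.12. LSL/+ replicate 2 spanned 0.17, LSL/LSL replicates 1 and 2 spanned 0.42 and 0.62, and the other 7 LSL/LSL tumours ran from -0.38 to 0.16. Removing this trend in each library left 661 genes (4.45%) non-overlapping higher and 594 (4%) lower, and called 0 genes by limma. The origin of the length trend was not tested, and values with it removed stand beside the groups of short or long genes below.

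**Figure D2:**
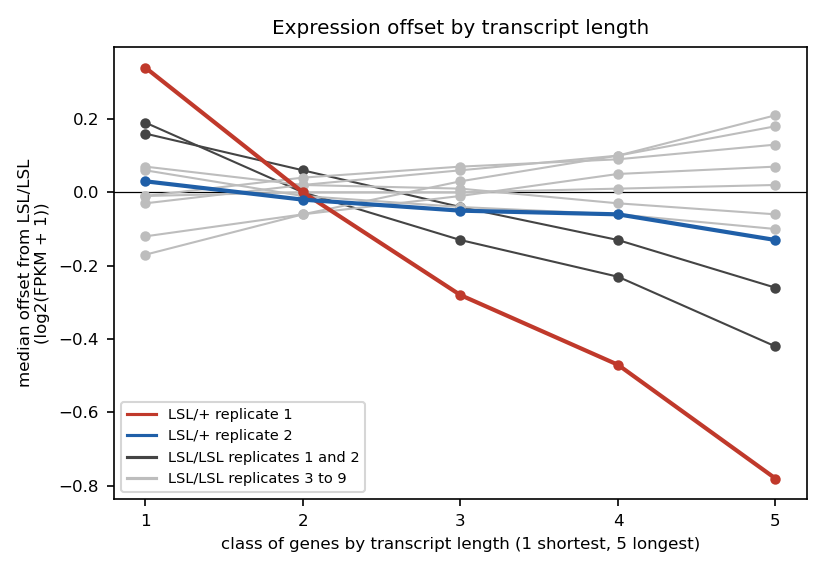
Median offset of each RPM tumour from the LSL/LSL tumours (y, log2(FPKM + 1)) in 5 classes of the tested genes by transcript length (x), with 1 line per tumour. The line of LSL/+ replicate 1 runs from 0.34 to -0.78, the steepest of the 11, and that of LSL/+ replicate 2 runs from 0.03 to -0.13.

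The groups most closely tied to MYC differed little from all genes at the median, with more members low in both LSL/+ tumours than among all genes. Ribosome biogenesis genes, which encode nucleolar rRNA processing factors and RNA polymerase I subunits, had a median difference of -0.25 over 36 genes, -0.09 relative to all genes (0.08 in replicate 1 and -0.22 in replicate 2). Both tumours lay below the LSL/LSL median for 24 of 36, against 41.4% of all genes. As deposited 4 were non-overlapping lower (6.68% of all genes) and 0 higher, with 2 lower after median-of-ratios scaling (4.72%) and 2 with the length trend removed (4%), near those shares. Tsr1, a factor of small-subunit maturation, was 32.9, 39.9 and 45.9 FPKM in LSL/LSL and 26.9 and 28.8 in LSL/+, so both LSL/+ tumours lay under the LSL/LSL range. Utp20, a component of the small-subunit processome, was 4.54, 8.33 and 10.9 against 3.67 and 4.36, also without overlap. Utp15, another processome component, and Nop14 were non-overlapping lower as well. By contrast Ncl and Npm1, abundant nucleolar proteins named here after their values were seen, overlapped, at 599 and 426 FPKM against 410 to 947, and 1432 and 1420 against 1178 to 2117.

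The genes of the MYC network, meaning MYC, MAX and their dimer partners, cofactors and regulators of stability, had a median difference of -0.30 over 22 genes, -0.14 relative to all genes (-0.05 in replicate 1 and -0.17 in replicate 2). Both tumours lay below the LSL/LSL median for 14 and above it for 3. Usp28, a deubiquitinase that opposes FBXW7, was 8.35, 9.98 and 13.5 FPKM in LSL/LSL and 6.56 and 8.08 in LSL/+. Trrap, the scaffold of MYC-associated acetyltransferase complexes, was 23.1, 28.9 and 35.2 against 22.5 and 21.6. Wdr5, a chromatin cofactor of MYC, was 40.9, 44.6 and 48.6 against 36.7 and 40.3. These 3 were the non-overlapping members as deposited, each by a narrow margin, against 6.68% of all genes. With median-of-ratios scaling the list had 1 non-overlapping lower and 1 higher, and with the length trend removed 1 lower. Nucleotide synthesis genes differed by -0.08 at the median, above the all-gene value, with 12 of 24 below the LSL/LSL median in both tumours and 3 above.

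E-boxes were looked up in RefSeq promoter windows of GRCm38.p6, taking the 250 bases before each annotated start and the letters CACGTG, a palindrome that reads the same on both strands. Of 10572 tested genes with a window, 1040 (9.84%) held it, against 10.5% of the non-overlapping lower genes and 7.69% of the non-overlapping higher genes, so both directions were close to the background share. In ribosome biogenesis 1 of 31 windows (3.23%) held it, that of Nop2, an rRNA methyltransferase gene. Both windows below are printed with the E-box in capitals, to show what was counted, Pard6a because it is the only gene called between the genotypes and Nop2 because it is the only ribosome biogenesis match. The Pard6a window is chr8:105700898-105701147, plus strand. It was taken from 2 listed for the gene by the highest number of E-box matches. The Nop2 window is chr6:125131633-125131882, plus strand.
Pard6a: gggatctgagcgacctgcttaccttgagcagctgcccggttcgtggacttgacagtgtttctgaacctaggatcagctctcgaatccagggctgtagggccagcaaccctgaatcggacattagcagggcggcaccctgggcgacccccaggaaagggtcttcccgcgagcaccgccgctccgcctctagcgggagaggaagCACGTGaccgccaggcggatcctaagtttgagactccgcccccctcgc
Nop2: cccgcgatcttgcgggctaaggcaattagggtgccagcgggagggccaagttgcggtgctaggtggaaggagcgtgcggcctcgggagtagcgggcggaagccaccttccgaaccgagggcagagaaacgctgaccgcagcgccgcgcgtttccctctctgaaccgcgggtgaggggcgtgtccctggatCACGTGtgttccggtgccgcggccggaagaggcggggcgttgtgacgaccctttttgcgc

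Epithelial genes showed the lowest median of any pathway list with 10 or more tested genes. The list holds simple keratins, claudins, cadherin and the factors that maintain epithelial identity, and its median difference was -1.38 over 19 genes, -1.23 relative to all genes. Both LSL/+ tumours lay below the LSL/LSL median for 17 of 19 and above it for 0, and 11 of 19 were non-overlapping lower, against 6.68% of all genes. That count was 10 after median-of-ratios scaling and 9 with the length trend removed. No member passed limma with Benjamini-Hochberg adjustment.

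Krt19, a keratin of simple epithelia, was 1.19, 10.6 and 24.0 FPKM in LSL/LSL (lowest, median and highest) and 0.41 and 0.00 in LSL/+. Krt8, a keratin of the same simple epithelia, was 1.99, 12.1 and 45.6 against 0.99 and 0.75. Cdh1, the E-cadherin gene, was 0.63, 5.87 and 15.6 against 0.07 and 0.07. In all 3 the LSL/+ tumours lay below the lowest LSL/LSL tumour. Cldn7, a tight-junction claudin, was 0.79, 2.72 and 9.46 against 0.00 in both. Epcam, an epithelial adhesion molecule named after its values were seen, was 1.67, 4.26 and 25.4 against 1.13 and 0.82. In all, 12 of the 19 epithelial genes were under 1 FPKM in both LSL/+ tumours. The adjusted p of Krt19 was 0.231, of Cdh1 0.262 and of Krt8 0.256 by limma with Benjamini-Hochberg adjustment.

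Alveolar and club cell genes of the surrounding lung were low in the same libraries. Markers of alveolar type 2 cells, which make surfactant, summed to 25.5 and 20.5 FPKM in LSL/+ against 23.5 to 898 in LSL/LSL (median 498), and 8 of 10 lay below the LSL/LSL median in both LSL/+ tumours. Sftpc, the surfactant protein C gene, was 16.5 and 3.84 FPKM against 1.62, 332 and 616. Sftpb was 0.10 and 0.09 against 0.07, 61.0 and 125. For both surfactant genes the LSL/+ tumours lay within the LSL/LSL range, at its low end.

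Club cell markers, which label secretory cells of the airway, summed to 65.0 and 3.52 FPKM against 12.5 to 1712, and 6 of 6 lay below the LSL/LSL median in both. Cyp2f2, a cytochrome of club cells, was 0.16 and 0.08 FPKM against 0.30, 11.3 and 30.0. Alveolar type 1 markers summed to 27.6 and 63.9 FPKM against 22.4 to 239, and 6 of 8 were on the low side in both. LSL/LSL replicate 4 resembled the LSL/+ tumours in these lists, with mean log2(FPKM + 1) of 1.02 for alveolar type 2 and 1.03 for club markers, and its epithelial mean was 1.29, beside 1.29 in LSL/+ replicate 1 and 0.97 in LSL/+ replicate 2. Ciliated cell markers were mixed. Of 6 tested, 4 lay below the LSL/LSL median in both LSL/+ tumours and 1 above it in both. Their sums were 53.2 and 102.9 FPKM in LSL/+ against 24.7 to 84.2 in LSL/LSL (median 50.7). The part of lung tissue in the epithelial difference was not tested. Among the 4 tumours titled PB115 to PB124, the epithelial mean was 3.25 and 1.85 in LSL/LSL, both above the LSL/+ values.

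**Figure D3:**
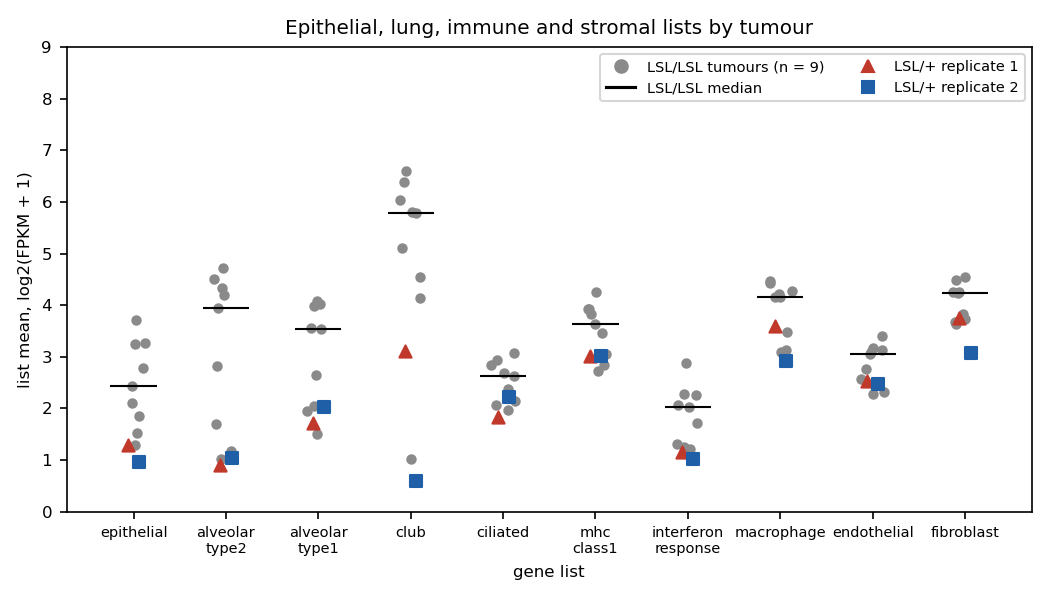
Mean log2(FPKM + 1) of the tested genes of each list (y) in the 11 RPM tumours, with 1 point per tumour and a line at the LSL/LSL median. LSL/+ values lie at or under the low end of the LSL/LSL range for the epithelial and alveolar type 2 lists, and LSL/LSL replicate 4, at 1.03, is the low LSL/LSL point of the club list.

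Immune signalling genes lay low with high agreement. Interferon response genes, induced by type I and type II interferon, had a median difference of -0.78 over 22 genes, -0.63 relative to all genes, and 21 of 22 lay below the LSL/LSL median in both tumours, against 41.4% of all genes. Only Ifi44 was non-overlapping, 1 of 22 and so no more often than the 6.68% of all genes, at 0.11 and 0.14 FPKM against 0.19, 0.83 and 1.99. The list mean was 1.15 and 1.01 in LSL/+ and 1.21 to 2.89 in LSL/LSL, so every LSL/LSL tumour was higher, the nearest being replicate 6. Many of these values are low, with 10 of the 22 interferon genes under 1 FPKM in both LSL/+ tumours. The list summed to 38.1 and 32.3 FPKM in LSL/+ against 40.6 to 178.5 in LSL/LSL. MHC class I and antigen processing genes had a median of -0.56 over 16 genes, with 15 of 16 below the LSL/LSL median in both. The genotypes overlapped in the mean of this list, at 3.02 and 3.01 in LSL/+ and 2.73 to 4.25 in LSL/LSL. Only H2-T22 was non-overlapping, 1 of 16 against 6.68% of all genes. B2m, the light chain of MHC class I named after its values were seen, was 93.5 and 102 FPKM against 74.8, 180 and 275. H2-T22, a class I gene of a family with near-identical copies whose counts are uncertain, was 2.50 and 2.14 against 3.35, 5.14 and 10.9.

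Leukocyte marker lists did not share 1 pattern. Macrophage markers were at 0.05 relative to all genes in LSL/+ replicate 1 and at -1.01 in replicate 2. Their sums were 441 and 299 FPKM against 303 to 904 in LSL/LSL. The MHC class II list was level with all genes in LSL/+ replicate 1 (0.07) and far below in replicate 2 (-1.82), so the LSL/+ tumours did not agree there. T and NK cell markers summed to 5.37 and 10.1 FPKM, the lower value in replicate 1, and to 3.90 to 17.6 in LSL/LSL (median 10.4). The part of infiltrating cells in the interferon and MHC class I values was not tested. Fibroblast markers were below the LSL/LSL median in both tumours for 9 of 12 (41.4% of all genes), with list means of 3.75 and 3.08 against 3.64 to 4.54. Their transcripts are long, and the median difference went from -0.57 to -0.17 with the length trend removed. At that setting the fibroblast offset was -0.12 in LSL/+ replicate 1 and -0.75 in replicate 2. Endothelial markers, again 9 of 12, had means of 2.52 and 2.48 against 2.27 to 3.41, and their median went from -0.50 to -0.29. Their offsets with the length trend removed were -0.04 in LSL/+ replicate 1 and -0.43 in replicate 2, so replicate 2 alone stayed low.

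Among developmental signalling pathways, the Notch list had a median of -0.48 over 22 genes, -0.32 relative to all genes and negative in all 25 alternatives computed. Both tumours lay below the LSL/LSL median for 13 and above it for 2. The receptor gene Notch1 was 0.57 and 0.84 FPKM against 1.17, 1.94 and 4.82, and the ligand gene Jag1 was 2.50 and 3.19 against 3.85, 5.14 and 8.47. Rest, a repressor of neuronal genes counted as a Notch target in small cell lung cancer, was 0.43 and 0.30 against 0.49, 1.15 and 4.21. Those 3 of 22 were non-overlapping lower (6.68% of all genes). Nrarp, a feedback inhibitor of Notch, was the single member non-overlapping higher (2.68% of all genes), at 7.68 and 7.50 against 5.62, 6.59 and 7.37. With the length trend removed 1 of 22 was non-overlapping lower (4% of all genes) and 1 higher (4.45%), near those shares. At that setting the median offset was 0.04 in LSL/+ replicate 1 and -0.28 in replicate 2, so the low position of replicate 1 was not seen.

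Wnt genes had the same median difference, -0.48 over 19 genes, with 15 of 19 below the LSL/LSL median in both. The co-receptor gene Lrp6 was 5.18 and 8.09 FPKM against 8.81, 12.2 and 16.2, and the receptor gene Fzd1 was 0.78 and 0.82 against 1.5, 2.90 and 5.40. Wnt3, a ligand, went the other way, at 3.71 and 3.63 against 0.38, 1.29 and 2.11. In this list 4 genes were non-overlapping lower (6.68% of all genes), and 1 with the length trend removed (4%), near the background. Its median relative to all genes reversed with the stricter filter of a mean of 5 FPKM, to 0.04 above.

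Neuroendocrine genes were well expressed in both LSL/+ tumours. These genes, including granins, prohormone processing enzymes and lineage factors, had list means of 5.19 and 5.09 against 3.52 to 5.39 in LSL/LSL, and their median was 0.25 above all genes. Cpe, a prohormone-processing carboxypeptidase, was 175 and 224 FPKM against 49.6, 124.2 and 152. Bex1, an X-linked gene common in neuroendocrine tumours, was 380 and 242 against 145, 205 and 237. Both were non-overlapping higher, 2 of 33 tested members against 2.68% of all genes. Both LSL/+ tumours lay above the LSL/LSL median for 16 of 33 (21.3% of all genes) and below it for 6 (41.4%), and 11 were split. The lineage factor gene Neurod1, named after its values were seen, overlapped fully, at 7.16 and 8.68 FPKM against 0.02, 5.06 and 31.7. Proneural and neuronal transcription factors as a list were at -0.37 relative to all genes. Their transcripts are long (median 4894.5 bases), and with the length trend removed the offsets were -0.10 in LSL/+ replicate 1 and -0.38 in replicate 2. Sox11 was 10.8 and 9.78 against 17.0, 23.2 and 39.2, and Sox4, its paralog, was 14.1 and 15.1 against 19.7, 31.1 and 58.5. Those 2 of 18 were non-overlapping lower (6.68% of all genes), and 0 of 18 with the length trend removed (4%). The difference of Sox11 was -1.15 as deposited, -0.97 after median-of-ratios scaling and -0.67 with the length trend removed. Hox genes, which pattern the body axis, had 6 tested genes of 25, of which 5 lay above the LSL/LSL median in both tumours, and Hoxb5 was 17.4 and 22.5 FPKM within an LSL/LSL range of 0.45 to 41.0.

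**Figure D4:**
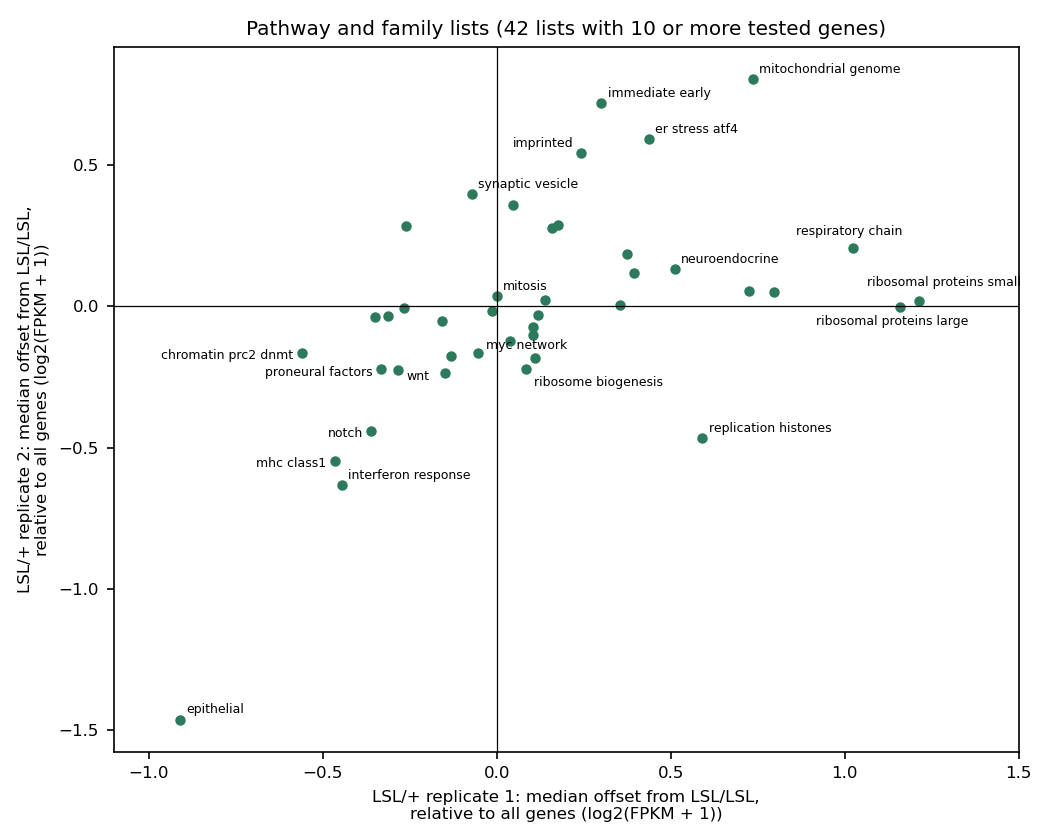
Median offset of each pathway or family list from the LSL/LSL tumours, minus that of all genes, in LSL/+ replicate 1 (x) and LSL/+ replicate 2 (y), for 42 lists with 10 or more tested genes. Epithelial, interferon response, MHC class I and Notch genes lie low in both, and mitochondrial genome and ER stress and ATF4 genes high in both, while the ribosomal protein lists are high on x alone, and Notch genes in LSL/+ replicate 1 are at 0.04 with the length trend removed.

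Ribosomal protein genes did not show agreement. Small-subunit genes had a median difference of 0.45 over 30 genes and large-subunit genes of 0.41 over 36, but relative to all genes the offsets were 1.21 and 1.16 in LSL/+ replicate 1 and 0.02 and 0.00 in replicate 2. Both tumours lay above the LSL/LSL median for 13 of 30 and 17 of 36. The large-subunit gene Rpl12 was the only non-overlapping member, at 195 and 144 FPKM against an LSL/LSL median of 83.9. That is 1 of 36 large-subunit and 0 of 30 small-subunit genes non-overlapping higher, no more than the 2.68% of all genes by much. These are short transcripts (median 1102 and 1169 bases), and with the length trend removed LSL/+ replicate 1 was still 0.68 and 0.56 above the LSL/LSL tumours. Ribosomal protein genes have many processed pseudogene copies, which makes their individual values uncertain. Proteasome subunits were at 0.80 in replicate 1 and 0.05 in replicate 2, and replicate 1 was at 0.27 with the length trend removed (median transcript 1705 bases).

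Respiratory chain genes lay above the LSL/LSL median in both tumours, unequally, and only LSL/+ replicate 1 left the LSL/LSL range of the list mean. Nuclear-encoded respiratory chain genes had a median of 0.39 over 30 genes, 0.55 above all genes, and 21 of 30 lay above the LSL/LSL median in both tumours against 1 below. Relative to all genes the offset was 1.02 in replicate 1 and 0.21 in replicate 2. The list mean was 8.322 in LSL/+ replicate 1 and 7.785 in LSL/+ replicate 2, against 7.31 to 7.951 in LSL/LSL. LSL/LSL replicates 1 and 2, at 7.794 and 7.875, were above LSL/+ replicate 2. With the length trend removed the offsets were 0.53 and 0.16 (median transcript 1763 bases). Cox4i1, a subunit of cytochrome c oxidase, was 2344 and 1408 FPKM against 544, 841 and 1172, and Atp5c1, a subunit of ATP synthase, was 481 and 396 against 248, 288 and 377. Those 2 were non-overlapping higher, against 2.68% of all genes. The 13 genes of the mitochondrial genome lay high in both tumours, by 0.74 and 0.80 relative to all genes, and 10 of 13 were above the LSL/LSL median in both. These are short (median 784 bases), and with the length trend removed the offsets were 0.27 and 0.71. Their list mean of 10.4 in both tumours overlapped LSL/LSL, where replicates 1 and 2 reached 10.8 and 10.4, so among the tumours titled PB115 to PB124 the groups overlapped.

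Genes of the ER stress and ATF4 list tended to lie higher in both LSL/+ tumours, with overlap in the list mean. The ER stress and ATF4 list, covering the unfolded protein and amino acid responses, had a median of 0.32 over 16 genes, 0.48 above all genes and above them in all 25 alternatives. Both tumours lay above the LSL/LSL median for 9 of 16 and below it for 0, and 7 were split. The list mean was 4.66 and 5.10 in LSL/+ against 4.09 to 4.85 in LSL/LSL, so LSL/+ replicate 1 lay within the LSL/LSL range. Ddit3, the CHOP transcription factor gene induced by ATF4, was 25.8 and 24.0 FPKM against 8.36, 12.0 and 17.8. Atf4 itself was 218 and 232 against 137, 158 and 206. Atf3 was 8.08 and 23.4 against 1.37, 5.42 and 6.93, and Herpud1, an ER-associated degradation gene on chromosome 8, was 51.7 and 86.1 against 33.5, 45.1 and 51.5. These 4 of 16 were non-overlapping higher, against 2.68% of all genes, with 4 also when the length trend was removed (4.45%) and 6 after median-of-ratios scaling (4.94%). Their adjusted p lay from 0.231 to 0.248 by limma with Benjamini-Hochberg adjustment.

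In the hypoxia list 2 of 18 genes were non-overlapping higher, against 2.68% of all genes. These were Bnip3, a mitophagy receptor, at 102 and 136 FPKM against 22.1, 52.3 and 90.3, and Higd1a, a mitochondrial inner membrane protein, at 59.8 and 64.8 against 18.5, 30.8 and 38.2. The list as a whole was at 0.05 and 0.36 relative to all genes. Immediate early genes were 0.30 and 0.72 above all genes, with Jund at 51.5 and 50.9 FPKM against 18.5, 28.4 and 32.8, while Fos, Jun and Egr1, named after their values were seen, lay on different sides of the LSL/LSL median. RNA came from fresh or frozen tumours, and the labels used here do not say which, so the part of tissue handling in these genes was not tested.

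Mitosis genes lay near the rest of the genes, at 0.00 and 0.04 relative to all genes. DNA replication genes were at 0.35 in LSL/+ replicate 1 and 0.00 in replicate 2, so the LSL/+ tumours did not agree. Cdk1, the mitotic kinase, was 225 and 221 FPKM against 158, 188 and 219. In the replication list, 3 of 30 genes were non-overlapping higher (2.68% of all genes): Gins4 at 64.9 and 57.4 FPKM against 27.8, 35.8 and 47.9, Gins2 at 74.1 and 67.1 against 32.8, 42.3 and 59.8, and Orc6 at 133 and 85.1 against 34.3, 48.5 and 84.5. Gins2 and Gins4 encode subunits of the GINS complex of the replicative helicase, and Orc6 a subunit of the origin recognition complex. All 3 lie on chromosome 8. Of the p53 targets, 3 of 16 were non-overlapping lower (Sesn1, Eda2r and Ccng1), against 6.68% of all genes, and 1 with the length trend removed (4%). Sesn1, a stress-induced inhibitor of mTOR signalling, was at 6.57 and 8.88 against 12.1, 15.3 and 20.5, in tumours in which Trp53 is floxed in both genotypes.

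As deposited, chromatin genes lay low mainly in LSL/+ replicate 1 and splicing genes slightly more in replicate 2. The list of Polycomb, histone demethylase and DNA methyltransferase genes was at -0.56 relative to all genes in replicate 1 and -0.16 in replicate 2. Kdm6a, an X-linked histone demethylase gene that escapes X inactivation, was 4.06 and 5.30 FPKM against 6.38, 8.51 and 13.8, and Dnmt3b was 0.95 and 1.17 against 1.2, 2.48 and 4.04. These transcripts are long (list median 4663 bases), and the list median went from -0.49 to -0.13 with the length trend removed. Splicing factors were at -0.15 and -0.24 relative to all genes, and their median went from -0.29 to -0.08 with the length trend removed. At that setting their offset was 0.04 in LSL/+ replicate 1 and -0.23 in replicate 2, so the low position of replicate 1 was not seen. Of 25, 4 were non-overlapping lower as deposited (6.68% of all genes), 2 after median-of-ratios scaling (4.72%) and 3 with the length trend removed (4%). Hnrnpu was 41.9 and 51.9 FPKM against 54.7, 66.1 and 78.2, and U2af2, which recognises the polypyrimidine tract, was 140 and 132 against 152, 181 and 190.

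Pard6a was the only gene called. It encodes PAR6 alpha, a polarity protein that works with PAR3 and atypical protein kinase C, and lies at chr8:105701148-105703496 on the plus strand. It was 11.1, 13.4 and 17.2 FPKM in LSL/LSL and 40.8 and 38.0 in LSL/+, so both LSL/+ tumours lay well above the highest LSL/LSL tumour. Pard6a rose by 1.42 (SE 0.17) with 1 Myc copy, with an adjusted p of 0.0306 by limma with Benjamini-Hochberg adjustment. It passed 0.05 in 9 of 25 alternatives, and its adjusted p over them ran from 0.00396 to 0.550, while its difference stayed between 1.18 and 1.61.

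Chromosome 8 stood out after the values were seen, since Pard6a, the 3 replication genes, Cox4i1, Cpe, Herpud1 and Jund all lie there. Of 752 tested genes on it, 105 (14%) were non-overlapping higher in LSL/+ against 2.68% of all genes, and with the length trend removed 22.7% against 4.45%. The chromosome holds 5.06% of tested genes and 26.4% of all non-overlapping higher ones. Relative to all genes, its median offset was 0.32 in LSL/+ replicate 1 and 0.39 in LSL/+ replicate 2. In the LSL/LSL tumours it ran from -0.16 (replicate 9) to 0.20 (replicate 5), so the groups did not overlap in this median. They did overlap in the share of chromosome 8 genes above the all-gene median offset. That share was 68.8% and 82.8% in LSL/+ replicates 1 and 2 and 71.9% in LSL/LSL replicate 5. The other 18 autosomes ranged from -0.13 to 0.07 in the LSL/+ tumours and from -0.19 to 0.14 in the LSL/LSL tumours.

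The offset covered the whole chromosome in both LSL/+ tumours. In 7 windows of 20 Mb, all 7 medians were above 0, from 0.15 to 0.48 in replicate 1 and from 0.31 to 0.44 in replicate 2. LSL/+ replicate 2 was above every LSL/LSL tumour in all 7 windows, and LSL/+ replicate 1 was not. LSL/LSL replicate 8 passed it from 0 to 20 Mb (0.29 against 0.22) and from 40 to 60 Mb (0.18 against 0.15). LSL/LSL replicate 5 passed it from 100 to 120 Mb (0.29 against 0.28). LSL/LSL replicates 8 and 9, which share a title number, had positive medians over the first 60 Mb (0.06 to 0.29) and negative ones beyond 80 Mb (-0.37 to -0.17). LSL/LSL replicate 5 was at -0.07 to 0.04 over the first 60 Mb and at 0.25 to 0.32 beyond. With 2 LSL/+ tumours, a difference by genotype and one that these 2 tumours share by other means cannot be told apart. DNA copy number was not analysed here.

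**Figure D5:**
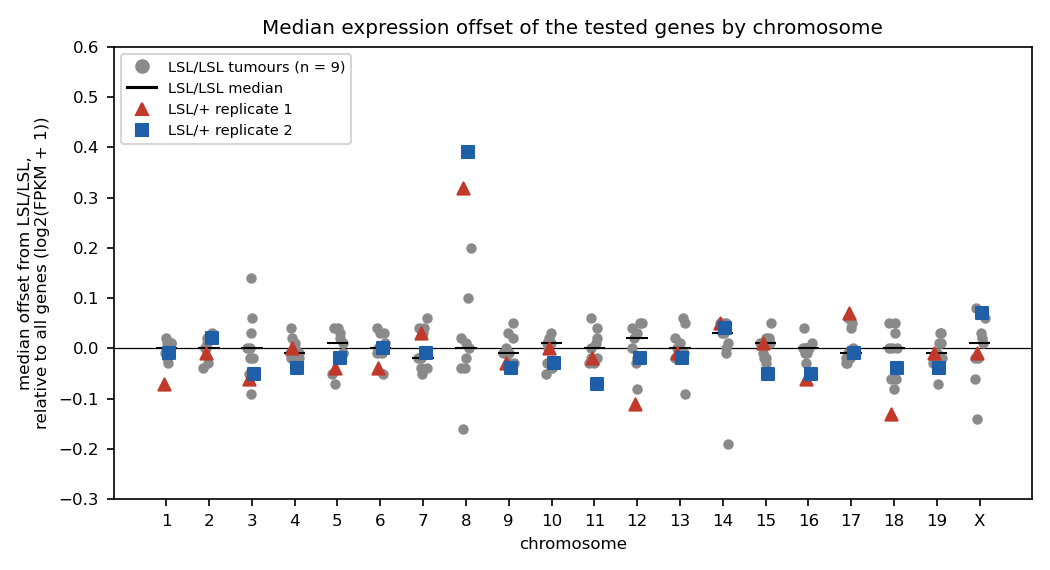
Median offset of the tested genes from the LSL/LSL tumours, minus that of all genes, by chromosome (y, log2(FPKM + 1)), with 1 point per tumour. On chromosome 8 both LSL/+ tumours (0.32 and 0.39) lie above all 9 LSL/LSL tumours.

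Of the other largest non-overlapping differences, none was called by limma. On the lower side Wfdc2, a secreted protein of airway epithelium, was 15.3, 47.3 and 114 FPKM in LSL/LSL and 5.52 and 0.77 in LSL/+, a difference of -3.80. Eln, the elastin gene, was 17.5, 57.97 and 136 against 8.27 and 4.54, and Mfap4, an elastic fibre protein gene, was 9.80, 17.5 and 48.5 against 3.38 and 0.66. Slc6a5, the neuronal glycine transporter gene, was 4.75, 9.41 and 29.1 against 0.88 and 0.36. On the higher side Chodl, a C-type lectin gene, was 0.86, 4.78 and 8.62 against 15.8 and 22.4, Kcnj8, a potassium channel subunit gene, 1.06, 3.31 and 4.0 against 9.97 and 14.5, and Pax1, a developmental transcription factor gene, 0.21, 1.92 and 5.76 against 6.65 and 17.1. In each of these the LSL/+ values lay outside the LSL/LSL range.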

How the data were processed

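The authors deposited 1 table of FPKM values per gene for all libraries, estimated with RSEM 1.2.12 and Bowtie 1.0.1 on mm10, per the submitters' processing notes; the stranded, oligo-dT selected library kit is per the labels' protocols. Read counts are not in that table, so count models were not used, and FPKM values carry no depth. Of 46517 gene rows, 46005 matched a GENCODE symbol, and 1 row naming no gene, at 0 in every library, was left out.

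Values were taken as log2(FPKM + 1), with genes at 1 FPKM or more in at least 3 of the 11 RPM libraries. LSL/+ and LSL/LSL were compared by a two-sided moderated test (limma 3.58.1, R 4.3.3, variance trend on, Benjamini-Hochberg over 14862 genes, threshold 0.05), which was also tested on simulated data. Myc was tested by an exact permutation over all splits. The labels do not say that the tumours came from separate mice, so p-values measure the spread between these samples. The members and the 60 gene lists (1175 entries, 1 unmatched) were chosen with earlier results of these data known, and lists were described by counts and medians, without a test. Offsets compare a tumour with the median of the LSL/LSL tumours, leaving itself out.

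Genes were named by rule: Myc family, targeted and sex-linked genes, the 10 largest differences per direction among called genes, filled from non-overlapping genes, and up to 4 non-overlapping members per list with the smallest limma p, or 2 of the highest expression. Predicted genes and, in the text, some others were left out. Alternatives covered pseudocounts (0.1 and 0.01), filters, scaling, weights, title numbers and leaving out each tumour. Removing the length trend (lowess, span 0.3) and the chromosome 8 medians were chosen after seeing the data. Transcript length was missing for 57 of the tested genes. Figures were drawn with matplotlib 3.10.9.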

Additional observations from a re-analysis of the deposited data

Results flagged for a closer look

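Within the 9 LSL/LSL tumours, 67 values (list means and the design genes) were checked for 1 tumour lying far from the other 8, and chance flags about 1 in 20 such groups. In 5 cases a tumour stood apart. Trp53 was 78.0 FPKM in LSL/LSL replicate 7, where the next tumour was at 16.1. The mean log2(FPKM + 1) of the club cell markers was 1.03 in LSL/LSL replicate 4, against 4.13 in the next tumour, which puts this 2-copy tumour between the LSL/+ values of 3.11 and 0.59. The adipocyte marker mean, over 2 tested genes, was 5.66 in LSL/LSL replicate 2 against 3.45 in the next, and LSL/+ replicate 1 was also high at 4.88. Wnt genes averaged 2.43 in LSL/LSL replicate 3 against 1.97, and cyclins and CDK inhibitors 3.95 in LSL/LSL replicate 2 against 4.19.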

How the results depend on the processing

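The number of genes called higher in LSL/+ by limma with Benjamini-Hochberg adjustment was 1, and became 30 with no expression filter and 0 with TPM scaling, quantile normalization, the length trend removed, 1 value per title number, only titles PB115 to PB124, array weights, all 14 libraries in the fit or no trend; leaving out 1 tumour at a time gave 0 to 2. The number called lower was 0, and became 4 with a pseudocount of 0.1 and 9 with 0.01, with 0 to 6 on leaving out 1 tumour, the 6 without LSL/+ replicate 2. Non-overlapping higher genes numbered 398 and became 172 with TPM, 734 with median-of-ratios, 618 with quantile normalization, 661 with the length trend removed and 1774 within titles PB115 to PB124, with 414 to 2036 on leaving out 1 tumour. Non-overlapping lower genes numbered 993 and became 583 with the filter at a mean of 5 FPKM, 629 with quantile normalization, 594 with the length trend removed and 2932 within titles PB115 to PB124, with 1013 to 5051 on leaving out 1 tumour; a group of fewer tumours overlaps less by construction. The Myc difference reversed, to 0.0115, without LSL/+ replicate 1, and ran from -2.24 to 0.0115 on leaving out 1 tumour. The chromosome 8 offsets fell to 0.00 and 0.16 with no expression filter, where many genes are at 0. For the other changes the cause was not tested. No paired analysis was possible because the labels give no replicate numbers shared by the genotypes. With 1 LSL/+ tumour left, that tumour is assumed to vary like the LSL/LSL tumours. With 2 LSL/+ tumours, small differences could not be detected.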

Other observations

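Cardiac muscle and adipocyte markers divided the LSL/+ tumours. The 7 tested muscle genes summed to 254 FPKM in LSL/+ replicate 1 and 6.92 in LSL/+ replicate 2, against 12.9 to 240 in the LSL/LSL tumours. Myl7, an atrial myosin light chain gene, was 84.1 and 1.32 FPKM, and Tnnt2, cardiac troponin T, 67.0 and 0.97. Fabp4, a fatty acid binding protein of fat cells and endothelium, was 202 and 30.8 FPKM, within 23.8 to 226 in LSL/LSL. Neutrophil markers had 4 tested genes of 10. Of these 1 was non-overlapping higher (2.68% of all genes), the chemokine receptor gene Cxcr2 at 7.35 and 3.63 FPKM against 0.69 to 3.0. Another 1 was non-overlapping lower (6.68% of all genes), the cytokine receptor gene Csf3r at 0.36 and 0.35 against 0.46 to 1.54. Imprinted genes also went both ways, with Sgce at 32.5 and 31.5 FPKM against 13.6 to 28.0 and Cdkn1c, a CDK inhibitor gene, at 2.70 and 0.44 against 3.32 to 36.6. Lipid synthesis genes were at -0.13 and -0.17 relative to all genes, with 14 of 23 below the LSL/LSL median in both tumours against 41.4% of all genes. Their median difference went from -0.34 to -0.12 with the length trend removed. Fasn, the fatty acid synthase gene, was 70.9 and 59.9 FPKM against 79.8 to 144. The Fasn difference was -0.78 as deposited and -0.27 with the length trend removed.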
